A study of Mus musculus with 33 samples.

Results

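PTHrP KO mammary tumors of week 10, the stage that the study calls adenoma, were compared with tumor-free PTHrP KO glands of the same age across all genes. The comparison used 5 of the 33 RNAseq libraries of the series, chosen by their labels, and each library came from 1 mouse. Of these, 3 were tumors and 2 were glands. All 5 mice were Pthrp flox/flox and carried a Cre transgene under the MMTV promoter together with the mTmG reporter, on an FVB background, so the loss of PTHrP was shared by tumors and glands and was not itself compared. The tumor mice also carried PyMT, a viral oncogene under the same promoter, and the gland mice did not. Tumors and glands of WT mice of week 8 and of KO mice of weeks 8 and 12 were used for further comparisons. The WT mice were Pthrp wt/wt and carried the same Cre transgene and reporter, with PyMT in the tumor mice. All 33 libraries entered the estimate of the spread. Tissue was digested and cultured for a short time, GFP+ cells were sorted, and libraries were made from RNA after ribosomal RNA (rRNA) had been removed. The libraries therefore describe sorted cells after culture, and MMTV-driven Cre marks only the cells in which that promoter has been active.

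PTHrP, encoded by Pthlh, is a secreted peptide that acts through the receptor PTH1R and cAMP and is needed for early mammary development. The mammary duct has an inner luminal layer and an outer basal or myoepithelial layer that contracts to eject milk. Luminal cells include hormone-sensing cells, which hold the progesterone and estrogen receptors and pass the signal to their neighbours, and alveolar progenitors, which make milk proteins under the transcription factor ELF5. PyMT activates SRC, PI3K and RAS signalling, and MMTV-PyMT tumors pass from hyperplasia through adenoma to carcinoma.

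Reads counted on genes ranged from 37061389 to 46516985 per tumor and from 32649211 to 39937428 per gland. Tumor replicate 1 stood apart in rRNA. Genes of type rRNA took 0.0045% of its reads, against 2.06% and 2.51% in the other tumors and 4.35% and 8.04% in the glands. Lars2, a nuclear gene whose count is linked to rRNA in these libraries, held 284 reads in tumor replicate 1 and between 513461 and 778920 in the other 4. The rRNA-linked rows were kept out of every count below, and the number of DEGs and the counts of most gene lists are also given without this tumor. The PyMT row held 560, 1242 and 651 reads in the tumors and 0 in each gland, which allows at most 3 reads per gland library, so this row went with the tissue labels. EGFP reads exceeded those of the tdTomato row 4.7-fold to 6.92-fold, although the rows differ in length and are not on 1 scale. Pthlh itself held 2.29, 1.51 and 1.64 CPM (reads scaled to a common TMM library size) in the tumors and 4.22 and 2.82 CPM in the glands. All tumors lay under both glands, but the log2 fold change of -0.95 did not pass the test (standard error 0.42, adjusted p = 0.258). Gene-level counts include the exons outside the deleted part and cannot check the KO label. From its alignments, the study reports no reads at the floxed exon of Pthlh in any of its KO samples.

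The sorted cells carried epithelial markers in every library. The summed level of 10 luminal markers was 10470, 9221 and 10314 CPM in the tumors and 10959 and 9199 CPM in the glands, so the groups overlapped. That of 10 basal or myoepithelial markers was 3828, 2433 and 2573 CPM in the tumors and 7301 and 12960 CPM in the glands, with no overlap. The 10 fibroblast markers summed to 157 to 579 CPM in the tumors and to 1694 and 2916 CPM in the glands, and most of this was Postn, the matrix protein periostin, with 123 to 524 CPM in the tumors and 1555 and 2868 CPM in the glands. Of the 10, Postn and Fbln1, a matrix glycoprotein, were called lower and 8 had negative log2 fold changes. Fbln1 held 2.33, 1.95 and 2.44 CPM in the tumors and 12 and 18.8 CPM in the glands (-2.78, adjusted p = 0.0317), and Dcn, decorin, changed by -2.30 without passing (0.479). The collagen genes were low, with Col1a1 between 8.09 and 33.8 CPM and Col3a1 between 0.488 and 30.4 CPM over the 5 libraries, and neither was called. Adipoq, the adipocyte hormone adiponectin, had 0 reads in all 5. The adipocyte, macrophage and endothelial sums were at most 11.6, 26.7 and 22 CPM. Of 10 markers each, 1 adipocyte (Lep), 0 macrophage and 1 endothelial marker (Cdh5) were called lower, and 0 higher. All 10 endothelial markers had negative log2 fold changes (median -1.90). Lymphocyte markers summed to 14.5 CPM in gland replicate 2 and to between 0.115 and 0.7 CPM in the other 4 libraries, and 4 of 10 were called lower. In bulk samples, fewer cells of a type and less RNA per cell cannot be told apart.

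**Figure D1:**
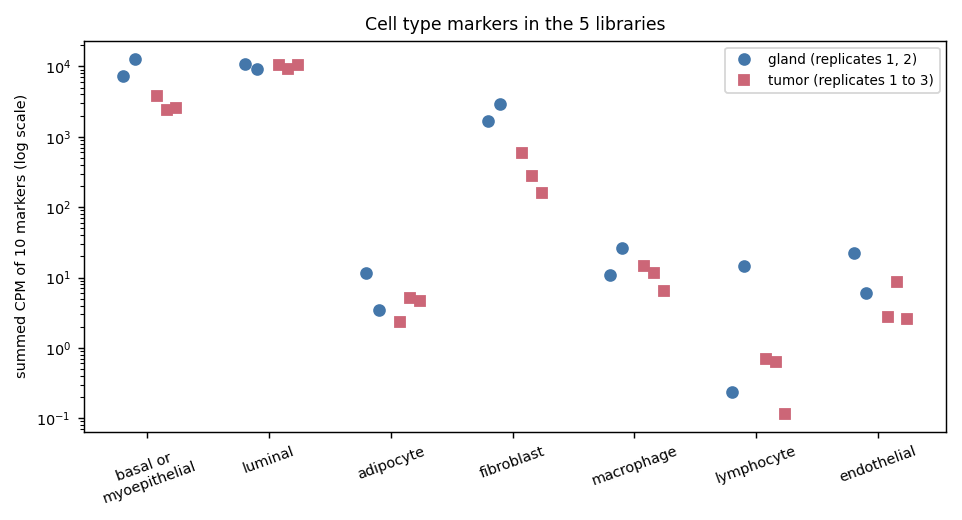
Summed CPM (log scale) of 10 markers for each of 7 cell types, with a point for each of the 2 glands (circles) and 3 tumors (squares). Basal or myoepithelial and fibroblast sums were higher in both glands than in every tumor, luminal sums overlapped, and the lymphocyte sum of gland replicate 2 (14.5 CPM) stood apart.

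Genes were called differentially expressed (DEGs) where edgeR's quasi-likelihood test gave a p under 0.1 after Benjamini-Hochberg adjustment and the fold change exceeded 1.5. Of 36476 genes tested, 938 were higher in tumors (2.57%) and 1129 were lower (3.1%), or 5.67% in all. The median log2 fold change of all genes tested was 0. The decreases were larger, with 392 DEGs lower and 149 higher by more than 8-fold. Many of the lower DEGs were weakly expressed, since 266 of them, against 87 of the higher ones, averaged under 1 CPM in both groups. All 3 tumors lay above both glands in 932 of the 938 higher DEGs, and all 3 lay below both in 1065 of the 1129 lower ones. Over all genes tested, such a separation was found upward in 13.9% and downward in 15%.

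**Figure D2:**
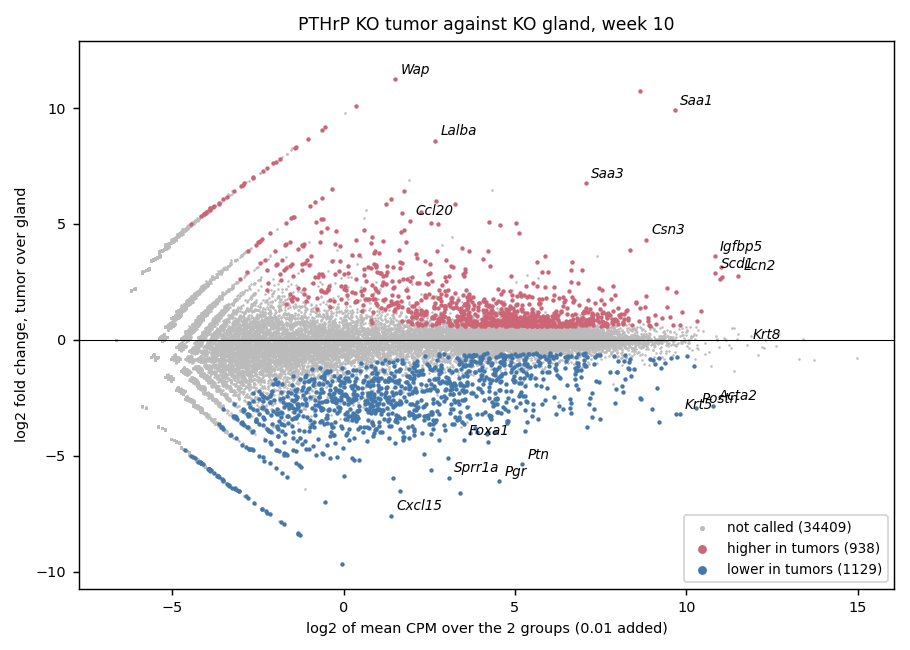
Log2 fold change of tumor over gland against the log2 mean CPM of the groups, for each gene tested. The 938 higher DEGs include Saa1, Saa3, Lcn2, Scd1 and Igfbp5, the 1129 lower DEGs include Pgr, Foxa1, Acta2 and Krt5, and Krt8 lay near 0. The diagonal bands are genes with few reads.

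The number of DEGs depended on single libraries. It was 1976 without tumor replicate 1, of which 1729 were also DEGs with all libraries. It fell to 1360 without tumor replicate 2 and to 1082 without tumor replicate 3. Without gland replicate 1 it was 1416, and without gland replicate 2 it was 693, of which 645 were also DEGs with all libraries. By the share of genes that differed over 2-fold, the glands were the less alike. Of 13237 genes at a mean of at least 1 CPM, 4.96% differed by over 2-fold between the glands, against 1.28% to 3.39% between pairs of tumors. Adjusted p values without a library, given below for the genes named by rule, come from these fits, and for other list members the counts of their list stand in. With 1 gland left, that gland is assumed to vary like the libraries of the other groups.

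**Figure D3:**
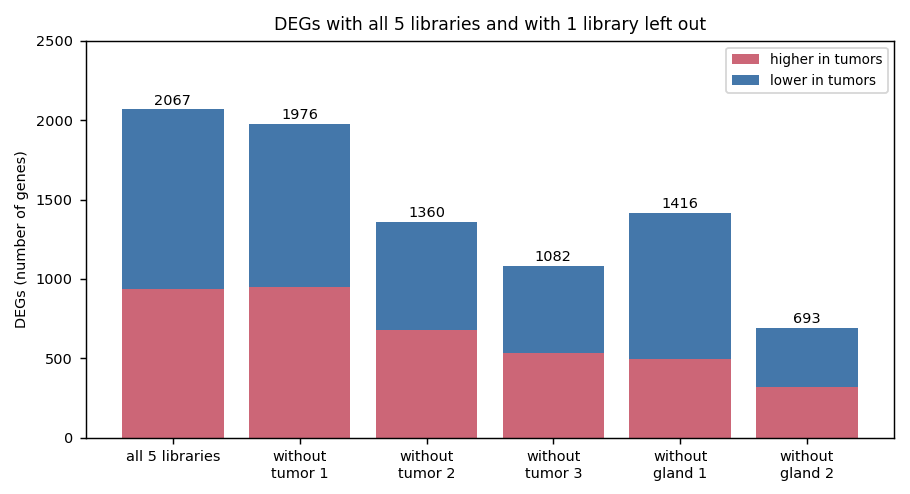
Number of DEGs, higher and lower in tumors, with all 5 libraries (2067) and with each library left out in turn. The count was close to the full one without tumor replicate 1 (1976) and lowest without gland replicate 2 (693).

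The largest increases among protein-coding genes included secreted proteins of the acute-phase response. Saa1, a serum amyloid A protein, held 939, 1538 and 2363 CPM in the tumors and 2.59 and 0.841 CPM in the glands, a log2 fold change of 9.90 (standard error 1.23, adjusted p = 5.62e-05). The gene lies on chromosome 7 of GRCm38 from 46740497 to 46742980. Its neighbour Saa2 rose from a mean of 0.486 to 807 CPM, and because these paralogs are near-identical the split of reads between them is uncertain. Saa3, a paralog, held 199, 241 and 360 CPM in the tumors and 4.8 and 0.244 CPM in the glands (log2 fold change 6.76, standard error 1.73, adjusted p = 0.0218). All tumors exceeded both glands for each of these genes, which was a condition for naming them, but the gland values of Saa3 lay far apart. The orosomucoid genes Orm1 and Orm2, plasma carrier proteins and also paralogs, rose by 5.84 and 6.44 on the log2 scale. Cp, the copper-carrying ferroxidase ceruloplasmin, held 2819, 3865 and 4187 CPM in the tumors and 502 and 603 CPM in the glands, a rise of 2.71 on the log2 scale (standard error 0.33). Lcn2, a siderophore-binding protein that withholds iron from bacteria, held 3893, 5394 and 5902 CPM against 618 and 881 CPM (log2 fold change 2.76, standard error 0.36). Pigr, the receptor that carries IgA across the epithelium, held 3.97, 8.6 and 15.3 CPM against 0.341 and 0.0814 CPM. Ccl20, a chemokine for CCR6+ cells, held 6.18, 6.86 and 9.3 CPM against 0.17 and 0.244 CPM. For Cp, Lcn2 and Ccl20 the replicates of each group were close together and the groups far apart. Cdh19 (a cadherin, log2 fold change 6.07), Soga3 (5.99) and Slc6a14, an amino acid transporter (5.49), were also among the 12 largest increases named. Cp and Lcn2 were not among these 12. Without gland replicate 2, Saa3 and Pigr no longer passed (adjusted p = 0.282 and 0.228), while the log2 fold changes stayed at 5.79 and 4.76.

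Of 25 alveolar and milk genes tested, 15 were higher and 1 was lower in tumors, against 2.57% and 3.1% of all genes. The median log2 fold change was 2.46, against 0 for all genes tested. Elf5, the alveolar transcription factor, held 52.1, 82.1 and 101 CPM in the tumors and 19.3 and 9.2 CPM in the glands (log2 fold change 2.46, standard error 0.46, adjusted p = 0.00212). Csn3, the kappa-casein that stabilises casein micelles, held 398, 896 and 1277 CPM against 59.9 and 25.8 CPM, a rise of 4.32 (standard error 0.56). Lalba, which directs lactose synthesis, held 7.12, 9.37 and 21.5 CPM in the tumors and only 2 reads over both glands, so that the ratio of pooled counts was 395 with an exact 95% counting interval of 109 to 3264. Tumors and glands did not overlap in any of these 3 genes. Wap, the whey acidic protein, held 0.535, 2.18 and 14.3 CPM in the tumors and 0 reads in both glands, at least 61.8-fold higher when the glands are set at 3 reads per library. Its tumor values spread widely, and the call (adjusted p = 0.0682) was lost without tumor replicate 3 (0.242) and without either gland (0.283 and 0.378). Other members that rose were Ltf, the iron-binding lactoferrin (153, 736 and 965 CPM against 60.9 and 23.9), Mfge8, a milk fat globule protein (750, 1143 and 1507 against 252 and 232), and Folr1, a folate receptor (5.39, 10.2 and 12.5 against 0.716 and 1.06). Csn2, the beta-casein, spanned 0.576 to 38.8 CPM in the tumors and 0.0271 to 1.6 CPM in the glands and did not pass (adjusted p = 0.121). The caseins Csn1s1 and Csn1s2a did not pass either (adjusted p = 0.154 and 0.463). The single lower member was Aldh1a3, a retinaldehyde dehydrogenase of luminal progenitors, whose call was lost without any 1 of the 5 libraries (adjusted p = 0.12 to 0.365). The list held 17 higher members without tumor replicate 1, 14 without tumor replicate 2, 11 without tumor replicate 3 or gland replicate 1 and 6 without gland replicate 2. Elf5 and Lalba missed the threshold without gland replicate 2 (adjusted p = 0.102 and 0.127).

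Among 20 hormone-sensing genes tested, 6 were lower, 2 were higher and 12 were not called, against 3.1% lower and 2.57% higher among all genes. The median log2 fold change was -1.53, and DESeq2 called 10 lower. Pgr, the progesterone receptor, held 0.947, 0.64 and 0.344 CPM in the tumors and 82.5 and 8.74 CPM in the glands (log2 fold change -6.11, standard error 0.90, adjusted p = 0.000275). Foxa1, the pioneer factor of the estrogen receptor, held 1.67, 0.717 and 0.775 CPM against 30.3 and 12.7 CPM, a change of -4.33 (standard error 0.53). Tbx3, a T-box factor of the hormone-sensing lineage, held 2.47, 1.69 and 0.746 CPM against 40.3 and 30.4 CPM (-4.41, standard error 0.66). Every tumor lay below both glands for these genes, and gland replicate 1 was the higher gland each time. Msx2, a homeobox factor, fell by 3.13 on the log2 scale and Wnt4, a paracrine target of progesterone, by 1.84. Areg, the EGF receptor ligand induced by estrogen, held 7.97, 4.66 and 4.97 CPM against 79.6 and 20.2 CPM and fell by 3.08, but did not pass without gland replicate 1 (adjusted p = 0.405) or without tumor replicate 3 (0.1). Esr1, the estrogen receptor, held 3.85, 5.84 and 4.25 CPM in the tumors and 18.4 and 6.7 CPM in the glands and did not pass (log2 fold change -1.43, adjusted p = 0.158). The prolactin receptor Prlr held 32.9 to 52.3 CPM in the tumors, between the glands (17.7 and 130 CPM). The higher members were Cited4, a transcription cofactor (50.8, 59.8 and 71.3 against 21.8 and 9.93 CPM), and Igfals, which stabilises circulating IGF (7.39, 11.3 and 12.8 against 4.16 and 1.82 CPM). Neither was called without gland replicate 2 (adjusted p = 0.37 and 0.528), nor was Igfals without tumor replicate 2 or 3 (0.136 and 0.196). The number of lower members was 6 without tumor replicate 1, 6 without tumor replicate 2, 5 without tumor replicate 3 or gland replicate 1, and 8 without gland replicate 2.

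The contractile genes of myoepithelial cells were the list with the lowest median among the 24 lists. Of 24 members tested, 15 were lower (3.1% of all genes) and 0 were higher in edgeR (19 and 1 in DESeq2), with a median log2 fold change of -2.76. Acta2, smooth muscle actin, held 825, 261 and 217 CPM in the tumors and 2329 and 3869 CPM in the glands (log2 fold change -2.84, standard error 0.69, adjusted p = 0.0148). Myh11, smooth muscle myosin, held 202, 48.7 and 32.7 CPM against 800 and 1381 CPM, a change of -3.53 (standard error 0.82). Tagln, an actin-binding protein of smooth muscle, held 332, 93.5 and 63.3 CPM against 1024 and 1977 CPM (-3.20, standard error 0.75). All tumors lay under both glands for these genes, and tumor replicate 1 was the highest tumor each time. Trpc6, a calcium-permeable channel, held 0.535, 0.333 and 0.23 CPM against 8.48 and 5.64 CPM, and Itga1, a collagen-binding integrin, held 5.91, 3.66 and 3.47 CPM against 17.1 and 16 CPM. Oxtr, the oxytocin receptor that starts milk ejection, held 29.1, 15.3 and 17.2 CPM against 134 and 132 CPM and missed the threshold (adjusted p = 0.104). Tpm1 and Cald1, cytoskeletal genes of many cell types, changed by -0.21 each and were not called (adjusted p = 0.827 and 0.817). The list had 15 lower members without tumor replicate 1, 12 without tumor replicate 2, 10 without tumor replicate 3, 15 without gland replicate 1 and 3 without gland replicate 2. Of 10 basal markers, 6 were lower, namely Krt5, Acta2, Myh11, Cnn1, Mylk and Actg2. Krt5, a basal keratin, held 210, 144 and 171 CPM against 874 and 2358 CPM (log2 fold change -3.21, standard error 0.70). By contrast Krt14 held 848 to 933 CPM against 1361 and 1780 CPM (-0.82, adjusted p = 0.245), and Trp63, the basal master factor p63, held 70 to 93.5 CPM against 81.1 and 145 CPM (-0.51, adjusted p = 0.722). Without gland replicate 2 none of the 10 basal markers passed in edgeR.

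Promoters of the contractile list were searched for the CArG box, the site of serum response factor, which governs smooth muscle genes. The motif was CC, then 6 bases each A or T, then GG, on either strand. It was found in 2 of 20 list members with a RefSeq promoter (10%) and in 488 of 27025 genes in all (1.81%), as a description of 300-base windows only. The promoters below are those of the members with a match, both of them lower in tumors, in GRCm38.p6 from 250 bases before to 50 after the gene start, with the CArG box in capitals. That of Myl9, regulatory myosin light chain, spans chr2:156775214-156775513 on the plus strand and has its match 161 bases upstream. That of Trpc6 spans chr9:8543892-8544191 on the plus strand with the match 122 bases upstream.
Myl9: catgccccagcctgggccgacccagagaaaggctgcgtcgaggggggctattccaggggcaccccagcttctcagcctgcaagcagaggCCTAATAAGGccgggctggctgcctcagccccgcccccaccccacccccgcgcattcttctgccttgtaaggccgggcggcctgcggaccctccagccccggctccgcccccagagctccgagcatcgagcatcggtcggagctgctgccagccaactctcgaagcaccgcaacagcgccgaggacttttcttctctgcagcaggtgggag
Trpc6: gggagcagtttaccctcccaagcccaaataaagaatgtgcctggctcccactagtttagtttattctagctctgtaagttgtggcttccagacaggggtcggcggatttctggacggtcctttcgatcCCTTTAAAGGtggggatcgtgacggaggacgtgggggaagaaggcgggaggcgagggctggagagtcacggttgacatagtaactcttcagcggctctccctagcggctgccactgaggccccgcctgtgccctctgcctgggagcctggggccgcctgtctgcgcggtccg
Myl9 held 137, 66 and 68.4 CPM in the tumors and 247 and 551 CPM in the glands (log2 fold change -2.14, standard error 0.68, adjusted p = 0.0739). For Trpc6 the log2 fold change was -4.23 (standard error 0.87, adjusted p = 0.00426). The other lower members of the list have no match in this window or no promoter in the table.

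Of 31 members of the collagen and matrix list, 11 were lower (3.1% of all genes) and 0 were higher in edgeR (14 and 0 in DESeq2), with a median log2 fold change of -1.33, and 20 were not called in edgeR. Without the filter on low counts 19 were lower, and on the 5 libraries alone 20. Col4a1 and Col4a2, the chains of basement membrane collagen, held 157, 105 and 78.3 CPM and 75, 63.8 and 51.6 CPM in the tumors. In the glands they held 830 and 983 CPM and 389 and 459 CPM. Their log2 fold changes were -3.00 (standard error 0.48) and -2.74 (standard error 0.39), and all tumors lay far below both glands. Nid1, which links laminin to collagen IV, changed by -2.53 (7.16, 7.5 and 5.02 against 37.5 and 38.3 CPM). Fbn1, the microfibril protein fibrillin, changed by -3.33 and Postn by -2.96. Col17a1 and Lama3, parts of the hemidesmosome and its laminin, were lower with all libraries but not without gland replicate 2 (adjusted p = 0.246 and 0.205). Fn1, fibronectin, held 1305 to 1730 CPM against 4001 and 3733 CPM and did not pass (adjusted p = 0.186), and Tnc and Thbs1 changed by -0.23 and 0.16. The number of lower members was 11 without tumor replicate 1, 7 without tumor replicate 3 and 4 without gland replicate 2. Of 24 matrix proteases and inhibitors, 5 were lower, among them Adam19, Mmp2 and Plat, and 1 was higher. That one was Mmp7, the epithelial matrilysin, with 0.782, 1.38 and 1.55 CPM in the tumors and 1 read over both glands (ratio of pooled counts 78.9, exact 95% counting interval 13.9 to 3139). The number of lower members was 4 without tumor replicate 1, 1 without tumor replicate 2 or 3 and 2 without gland replicate 1. Mmp7 and all 5 lower members failed without gland replicate 2 (adjusted p = 0.144 to 0.528).

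**Figure D4:**
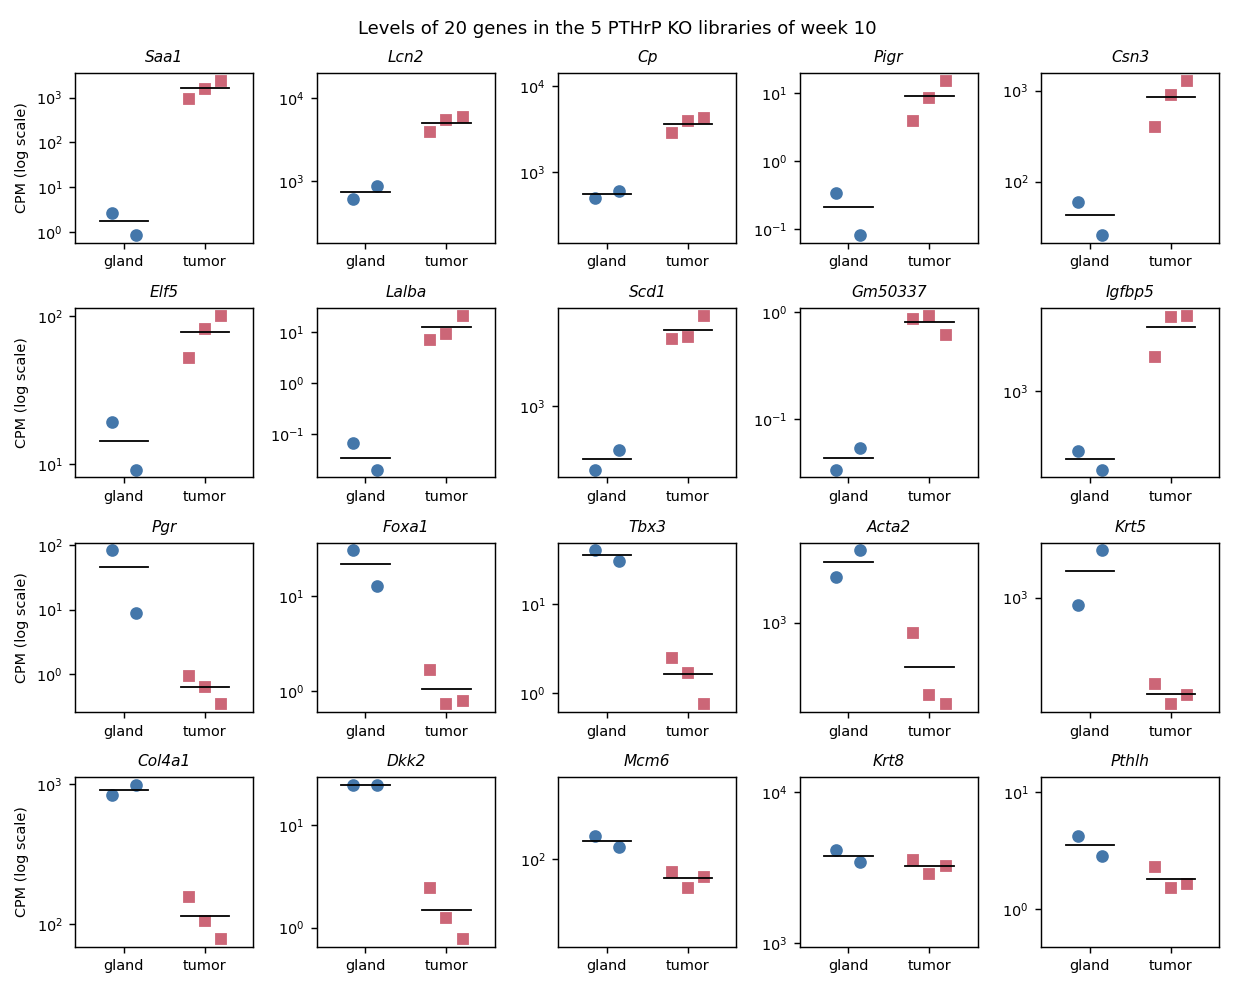
CPM (log scale) of 20 genes in the 2 glands (circles) and 3 tumors (squares), with a bar at each group's mean and values under 0.02 CPM drawn at 0.02. The groups overlap for Krt8 alone. Genes in the upper rows are higher and those from Pgr to Mcm6 lower in all tumors, while Mcm6 and Pthlh did not pass the test.

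Most general luminal genes were not called. Of 25 members tested, 6 were higher and 2 were lower, against 2.57% and 3.1% of all genes, with a median log2 fold change of 0.38. In 14 of the 25 all tumors lay above both glands, against 13.9% of all genes. The keratins Krt8, Krt18 and Krt7 changed by -0.22, 0.02 and 0.03, and the adhesion genes Epcam and Cdh1 by 0.12 and 0.14. Muc1, a mucin of the apical surface, held 61.9, 109 and 153 CPM against 1.7 and 15.8 CPM (log2 fold change 3.61, standard error 0.80), but did not pass without gland replicate 1 (adjusted p = 0.113). Prom1, a membrane protein of luminal progenitors, held 213, 182 and 220 CPM against 84.6 and 107 CPM and was not called without gland replicate 1 (adjusted p = 0.157). Krt19 was lower, with 173, 135 and 198 CPM against 673 and 321 CPM (-1.56, adjusted p = 0.0236), a call that did not hold without gland replicate 1 (0.447) or tumor replicate 2 (0.113). The count of higher members was 8 without tumor replicate 1, 4 without gland replicate 1 and 3 without gland replicate 2.

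In the fatty acid synthesis list, 4 of 24 members were higher and 1 was lower, against 2.57% and 3.1% of all genes, and the median was 0.01. The counts were 4 and 0 without tumor replicate 1, and 5 and 7 with the KO glands of all 3 weeks as the reference. Scd1, the desaturase that makes oleate from stearate, held 2794, 2869 and 4017 CPM in the tumors and 375 and 507 CPM in the glands, a log2 fold change of 2.87 (standard error 0.39, adjusted p = 0.000124). Scd1 occupies positions 44394455 to 44407879 of chromosome 19 (GRCm38, minus strand). The nearby lincRNA Gm50337, from 44419610 to 44437886 on the plus strand, held 0.865, 0.922 and 0.603 CPM in the tumors and 3 reads over both glands. The ratio of pooled counts was 17.8 (exact 95% counting interval 5.93 to 88) and the adjusted p was 0.000691. Thrsp, a lipogenic regulator, held 2.51, 4.76 and 5.37 CPM against 0.341 and 0.109 CPM, and Acsl4, which activates arachidonate, held 543, 806 and 888 CPM against 347 and 354 CPM. Fasn, fatty acid synthase, held 679 to 764 CPM against 710 and 954 CPM (-0.20, adjusted p = 0.642), and Acaca and Acly were not called either (adjusted p = 0.249 and 0.403). Thrsp was not called without gland replicate 2 (adjusted p = 0.172). Of the remaining calls, Dgat2 (lower) held in none of the fits with 1 library left out, and Srebf1 (higher) held only without tumor replicate 1. In the fatty acid oxidation list 4 of 24 were higher (Acads, Etfb, Eci2 and Slc25a20), also 4 without tumor replicate 1, and 0 were lower in edgeR and in DESeq2, with a median of 0.44 and changes of 0.59 to 0.70 in the called members. None of them passed without tumor replicate 3 or without gland replicate 2. Cholesterol genes were lower in 8 of 24 members (3.1% of all genes), with 0 higher in edgeR and in DESeq2 and a median of -0.65. DESeq2 called 13 lower, and 19 were lower with the KO glands of all 3 weeks as the reference. Mvk, mevalonate kinase, held 17.3, 14.9 and 17 CPM against 22.3 and 48.2 CPM (log2 fold change -1.10). All tumors lay below both glands, and the glands were far apart. Mvk was not called without gland replicate 2 (adjusted p = 0.538). The count of lower cholesterol members was 8 without tumor replicate 1, 4 and 3 without tumor replicates 2 and 3, 11 without gland replicate 1 and 0 without gland replicate 2.

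In the Wnt list 9 of 32 members were lower, 2 were higher and 21 were not called (median -0.41), against 3.1% and 2.57% of all genes, and the counts were 9 and 2 without tumor replicate 1. Dkk2, a secreted Wnt inhibitor, held 2.43, 1.23 and 0.775 CPM against 24.3 and 24.5 CPM (log2 fold change -4.02, standard error 0.72). Wnt6, Wnt10a, Wnt11, Wnt4 and Wnt5a were lower, as was Nkd1, a feedback inhibitor of the pathway (-2.78), while Axin2, its usual transcriptional readout, changed by -0.52 and was not called (adjusted p = 0.538). The higher members were Wnt5b (105, 135 and 164 against 70.6 and 73.6 CPM) and Sfrp1, a decoy for Wnt ligands (35.6, 60.3 and 75.6 against 10.6 and 17.7 CPM). Without gland replicate 2, 5 Wnt members were lower, and Wnt10a and Wnt11 were not called (adjusted p = 0.279 and 0.119). Sfrp1 was not called without gland replicate 1 (0.172). In the EGF, FGF and IGF list 9 of 32 were lower, 1 was higher and 22 were not called (median -0.26), against the same shares of all genes. Fgfr2, the receptor of epithelial FGF ligands, held 23.7, 20.5 and 20.3 CPM against 87.7 and 86.2 CPM (-2.01, standard error 0.48), and Hgf, the MET ligand, changed by -2.62. Igfbp5, a secreted IGF-binding protein, held 1889, 4028 and 4155 CPM against 323 and 225 CPM (log2 fold change 3.61, standard error 0.95, adjusted p = 0.0251). Although the groups were far apart, Igfbp5 did not pass without either gland (adjusted p = 0.147 and 0.287). The count of lower members was 7 without tumor replicate 1, 5 and 4 without tumor replicates 2 and 3, and 6 and 3 without gland replicates 1 and 2. Erbb2, Egfr, Met and Fgfr1 were not called (adjusted p = 0.475 to 1).

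No gene of the DNA replication and mitosis lists was called in the main edgeR test, though nearly all had negative log2 fold changes. None of 25 DNA replication genes was a DEG in edgeR, yet all 25 had a negative log2 fold change (median -0.78), and in 24 of them all tumors lay below both glands, against 15% of all genes. Mcm6, a subunit of the replicative helicase, held 78.8, 57.5 and 70.5 CPM in the tumors and 157 and 128 CPM in the glands (-1.05, standard error 0.40, adjusted p = 0.16). DESeq2 called 8 of the 25 lower. With edgeR 14 were lower without the filter on low counts, 3 with filterByExpr and 17 on the 5 libraries alone, and the cause of these shifts was not tested. Of 25 mitosis genes none was called by edgeR or DESeq2, 24 had a negative value (median -0.37) and 19 lay below both glands in all tumors. Mki67, the proliferation marker Ki-67, held 178, 162 and 194 CPM against 296 and 247 CPM (-0.61, adjusted p = 0.681). In the main edgeR test the spread is estimated over all 33 libraries. On the 5 libraries alone, 3 mitosis genes were called lower. The CHR element of cell cycle promoters, TTTGAA or TTCGAA on either strand, was found in 16 of 20 mitosis genes with a promoter (80%) and in 21.7% of all promoters.

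In the apoptosis list 8 of 30 members were higher (2.57% of all genes) and 0 were lower in edgeR and in DESeq2 (median 0.36). They include genes of both directions of the pathway. Bmf, Bbc3 and Bik, which promote cell death through BCL2 proteins, rose by 1.74, 0.85 and 1.04, and Bcl2, Bcl2l1 and Birc3, which prevent it, rose by 0.91, 0.74 and 0.70. Bcl2l1 was not called in 4 of the 5 fits with 1 library left out (adjusted p = 0.103 to 0.367), Bcl2 was not called without gland replicate 1 (0.101), and Birc3 was not called without tumor replicate 3 or gland replicate 1 (0.113 and 0.403). Casp1, the inflammatory caspase, held 37.2, 37.7 and 38.6 CPM against 10.2 and 15.5 CPM (1.56, standard error 0.35), and the death receptor Fas held 14.3, 14 and 14.1 CPM against 3.37 and 7.3 CPM. Neither was called without gland replicate 1 (adjusted p = 0.149 and 0.18). The number of higher members was 7 without tumor replicate 1, 5 and 4 without tumor replicates 2 and 3, 1 without gland replicate 1 and 5 without gland replicate 2. Among p53 targets Bbc3 alone of 20 was called, and Cdkn1a changed by -0.31 (adjusted p = 0.843).

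Immune signalling genes gave a mixed picture. Of 29 chemokines and cytokines Ccl20 was higher and 4 were lower, against 2.57% and 3.1% of all genes, and the counts were 1 and 4 without tumor replicate 1. Cxcl15, also called lungkine, held 0.0412, 0 and 0.0287 CPM in the tumors and 9.64 and 0.678 CPM in the glands, 3 reads against 308. Cxcl12, the CXCR4 ligand, held 16.7, 5.97 and 4.85 CPM against 31.3 and 90.8 CPM, and Il33, an alarmin, and Cxcl10 were also lower. The count of lower members was 2 without either gland. Cxcl12 and Cxcl10 were not called without gland replicate 2 (adjusted p = 0.304 and 0.212), nor were Il33 and Cxcl15 without gland replicate 1 (0.117 and 0.108). None of 29 interferon-stimulated and MHC genes was a DEG by edgeR or DESeq2. In the fit with the KO glands of all 3 weeks as the reference, 7 were higher. Ifit1 held 19.8, 0.896 and 3.42 CPM in the tumors and 4.77 and 17.2 CPM in the glands, and Isg15 held 31, 3.3 and 10.2 against 15.5 and 39.6 CPM. Tumor replicate 1 was the highest tumor in both. Immunoglobulin and T cell receptor genes gave 8 lower DEGs of 97 tested, against 3.1% of all genes. Their summed level was 101 CPM in gland replicate 2, 9.81 CPM in gland replicate 1 and at most 9.78 CPM in the tumors, beside the lymphocyte marker sum of 14.5 CPM in gland replicate 2, and the part of lymphocytes in other lower calls was not tested.

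The remaining lists held 1 to 5 DEGs each, to be read against 5.67% of all genes. In the glycolysis and hypoxia list Car9, Adm, Pfkl and Ndrg1 were higher and Vegfa was lower, of 24, while the glycolytic enzymes Ldha, Pkm and Gapdh had log2 fold changes of 0 to 0.02. The count of higher members was 4 without tumor replicate 1, 1 without tumor replicate 3, 2 without gland replicate 1 and 1 without gland replicate 2. Car9, Pfkl and Ndrg1 were not called without gland replicate 2 (adjusted p = 0.447, 0.3 and 0.164), nor were Adm, Ndrg1 and Vegfa without gland replicate 1 (0.12, 0.171 and 0.425). Of 24 ERK genes Etv1 and Ier3 were higher and Ereg, Fosl1 and Ccnd1 were lower. With 1 library left out a single one of these 5 was called, Fosl1 without tumor replicate 1, Ereg without gland replicate 1 and Ier3 in the other fits. Of 24 ER stress genes Ddit4 alone was called, and not without gland replicate 1 (adjusted p = 0.144). The Hippo list had 2 lower of 18 members found, Axl and Crim1, neither of them called without gland replicate 2 (adjusted p = 0.345 and 0.493), and Ccn1 and Ccn2 were not called (adjusted p = 0.329 and 0.705). Among EMT and basal regulators Tgfb2 and Tgfb3 were higher and Snai2, Cdh3 and Id4 lower, of 25. None of these 5 was called without gland replicate 2 (adjusted p = 0.113 to 0.483), nor was Tgfb2 without gland replicate 1 (0.107). Snai2 and Cdh3 were also not called without tumor replicate 2 (adjusted p = 0.114 and 0.129). Vim and Zeb1 were not called (adjusted p = 0.499 and 0.989). Of 19 Notch genes Hey1 was higher and Nrarp lower. Hey1 was not called without either gland (adjusted p = 0.222 and 0.359) or without tumor replicate 2 or 3 (0.106 and 0.131), and Nrarp was not called without gland replicate 1 (0.461) or tumor replicate 2 (0.176). With the KO glands of all 3 weeks as the reference, Nrarp, Aldh1a3 and Bcl2l1 were not called (adjusted p = 0.186, 0.181 and 0.117), and Ddit4, Ier3 and Bbc3 had log2 fold changes of 0.57, 0.31 and 0.51, under the 1.5-fold threshold. In the list of the PTHrP axis and cAMP response 1 of 26 was higher (Pde8a) and 2 were lower (Adcy3 and Adcy7). Adcy3 alone was called with any 1 library left out, Pde8a not without tumor replicate 1 or either gland (adjusted p = 0.113, 0.362 and 0.127) and Adcy7 not without tumor replicate 3 or gland replicate 2 (0.115 and 0.495). Pth1r, the receptor of PTHrP, held 0.144, 0.0768 and 0.0574 CPM in the tumors and 0.136 and 0.38 CPM in the glands, near the floor of detection, and was not called (adjusted p = 0.625).

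**Figure D5:**
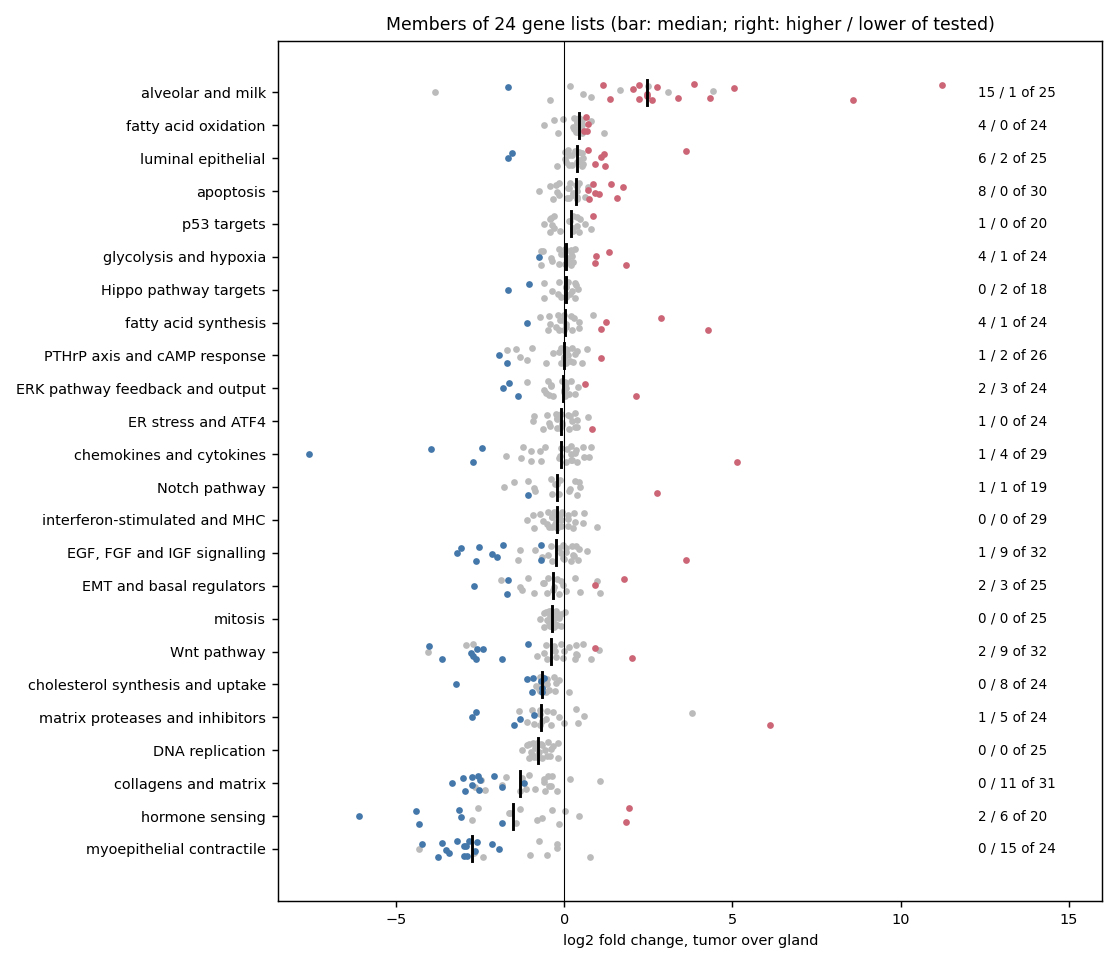
Log2 fold change of every tested member of 24 gene lists, ordered by median (bar), with DEGs in color and, at the right, the number higher and lower of those tested. The alveolar and milk list had the highest median (2.46) and the myoepithelial contractile list the lowest (-2.76).

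Beyond the lists, the largest decreases included genes of several kinds. Ptn, the growth factor pleiotrophin, held 1.81, 1.23 and 2.18 CPM in the tumors and 122 and 22 CPM in the glands (log2 fold change -5.37, standard error 1.05). Tph1, which starts serotonin synthesis, held 0.782, 0.282 and 0.316 CPM against 23.9 and 8.22 CPM (-5.08, standard error 0.70), and Pcp4, a calmodulin regulator, changed by -5.63. In Ptn and Tph1 gland replicate 1 was the higher gland. The decreases of Sprr1a, a cornified envelope protein (-5.95), Capn8 (-5.96), Rasgrf1 (-4.94) and Cxcl15 (190-fold by pooled counts, exact 95% counting interval 64.4 to 926) rested on gland replicate 1 and were not called without it (adjusted p = 0.108 to 0.869). Conversely Col14a1 (-4.34) was not called without gland replicate 2 (adjusted p = 0.102). R3hdml changed by -4.44. The most certain calls were often smaller. Scn8a, a sodium channel, rose by 3.10 (5.95, 4.58 and 6.2 against 0.818 and 0.488 CPM), Crabp2, a retinoic acid carrier, by 1.57, Aldh3a2, a fatty aldehyde dehydrogenase, by 1.34, Ppm1h by 1.23 and Pgpep1 by 1.12. Cavin1, a coat protein of caveolae, changed by -2.31 (55.6, 51.4 and 46.1 against 177 and 327 CPM), and Ehd2, which sits at the caveolar neck, by -1.62. Gli3, a Hedgehog effector, changed by -2.44 (4.78, 4.69 and 4.16 against 22.9 and 26.6 CPM), Coro2a by -1.81, Lmx1b by -3.32, Bicc1 by -3.65, Ripor2 by -3.20, Gm266 by -3.87, Sdk1 by -3.13, Lmtk3 by -2.93 and S100a14 by -2.43. The groups did not overlap in any of these genes, which was a condition for naming them. Each of these calls held with any 1 library left out.

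Of the DEGs, 75 higher and 137 lower ones were not protein-coding. C530043A13Rik held 15.2, 34.7 and 42 CPM in the tumors and 4.02 and 1.55 CPM in the glands (log2 fold change 3.47), and BC016548 held 4.28, 5.92 and 7.58 CPM against 0.545 and 0.651 CPM (3.30). Gm44250 and Gm10863 were higher by 1.95 and 1.58. On the lower side, Gm16485 held 0.103, 0.0768 and 0 CPM against 11.4 and 0.787 CPM (-6.53), and C130021I20Rik, AW112010 and Rps4l changed by -3.98, -3.66 and -3.30. Rps4l resembles a ribosomal protein gene, so its reads may be shared. Without gland replicate 2, C530043A13Rik, Gm44250 and Gm10863 were not called (adjusted p = 0.197 to 0.296), and Gm10863 was not called without gland replicate 1 either (0.104).

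The tumor effect of week 10 was set beside those of WT mice at week 8, which the study also calls adenoma, and of KO mice at weeks 8 and 12, each with 3 tumors and 2 glands. No library is shared between these comparisons. Tests of the difference in effect gave 0 DEGs (0%) for each in edgeR, with 1508, 1769 and 1116 genes at an unadjusted p under 0.05, and 12, 7 and 3 DEGs in DESeq2. A difference that misses the threshold does not show equal effects. Of the 2067 DEGs of week 10, 2012 (97.3%) had the same sign in WT mice at week 8, 1931 (93.4%) in KO mice at week 8 and 1985 (96%) in KO mice at week 12. Over all genes tested the shares were 56.6%, 52.6% and 60.5%. Effects at week 10 were larger in size than in WT mice at week 8 for 1051 of the 2067, than in KO mice at week 8 for 1824 and than in KO mice at week 12 for 1388, counts that favour week 10 because the DEGs were chosen there. The log2 fold change of Scd1 was 2.87 at week 10, 3.23 in WT mice at week 8, 1.80 in KO mice at week 8 and 2.08 in KO mice at week 12. Its difference from KO week 8 was 1.07 (standard error 0.49, adjusted p = 0.931). Gm50337 changed by 4.08 at week 10 and by 3.78, 1.64 and 1.55 in the same order. Elf5 changed by 2.46, then 3.50, 1.65 and 2.52, and Pgr by -6.11, then -5.53, -2.81 and -3.82. Saa3 changed by 6.76 at week 10 but by 0.58 in WT mice at week 8, a difference of 6.17 (standard error 1.95, unadjusted p = 0.00397, adjusted p = 1). Saa1 and Saa2, the paralogs of Saa3, changed by 9.90 and 10.72 at week 10 and by 11.81 and 12.40 in WT mice at week 8. Sprr1a changed by -5.95, then -6.01, -0.96 and -2.06. None of these differences passed the adjustment.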

How the data were processed

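RNAseq was measured in 33 libraries of sorted mammary cells, of which 5 (3 KO tumors and 2 KO glands of week 10) were compared. The deposited values are raw read counts per gene. The authors aligned reads to GRCm38 with HISAT, sorted and merged them with sambamba, took out amplification duplicates with Picard and made the counts with HTSeq on Gencode annotation. Whether reads were counted by strand is not given in the sources used here, so genes that overlap on opposite strands are uncertain. A second deposited table of normalized values was not used. Groups came from the sample labels, and nothing in the labels pairs a tumor with a gland.

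Of 55487 genes, the 36527 with at least 10 summed reads were tested with edgeR 4.0.16 in R 4.3.3 (TMM library sizes, quasi-likelihood test over all 33 libraries with 1 term per group, Benjamini-Hochberg adjustment). Of these, 51 rRNA-linked rows were left out of the counts of DEGs. Another 111 rows that name no gene held 0.0323% to 0.126% of the reads and were left out. The standard error of each gene was taken as its absolute log2 fold change over the root of its F statistic. The threshold was a fold change over 1.5 and an adjusted p under 0.1. Differences between tumor effects were tested as contrasts of the same fit. The procedure was tested on simulated data. Bounds for groups without reads use 3 reads per library, and 95% exact intervals of ratios of pooled counts cover counting error only. Where a gene had 0 reads, fitted values depend on the prior count.

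Named genes were up to 12 each way with the largest change and with the smallest p among protein-coding DEGs with a mean of at least 5 CPM in the higher group and no overlap, up to 6 each way in every list, 4 non-coding genes each way, genes called in the differences between tumor effects, and Pthlh, Scd1, Gm50337 and the transgene rows. Other list members were named after their values were seen. The gene lists, marker lists and comparisons were chosen with earlier results of these data known. Gene coordinates come from a GENCODE annotation of GRCm38 and promoters from RefSeq (GRCm38.p6). Alternatives were DESeq2 1.42.0, its size factors, other filters and thresholds, the 5 libraries alone, removal of rRNA-linked rows, the rRNA share as a covariate, the KO glands of all 3 weeks, a replicate block and each library left out. Python 3.11.15 with pandas 2.3.3 was used for summaries. The values of 1 gene are not reported here.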

Additional observations from a re-analysis of the deposited data

How the results depend on the processing

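The 2067 DEGs of week 10 became 3170 with the KO glands of all 3 weeks as the reference (51.7% of them higher, against 45.4%) and 886 with a replicate block (53.6% higher, 880 shared with the 2067). With the rRNA share as a covariate 41.5% of DEGs were higher, and with a fold change over 2 it was 35.7%. Leaving out each library in turn gave 693 to 1976 DEGs, of which 35% to 49.7% were higher. The count stayed within 1.5 times with DESeq2 (2817), its size factors (2059), no filter (2688), filterByExpr (2569), the 5 libraries alone (2807) and removal of rRNA-linked rows (2102). The cause of these shifts was not tested. The numbers of the replicates were not taken as pairs, since only 2 are shared and the deviations of same-numbered tumors and glands correlated at -0.22 and -0.18. The replicate block treated these numbers as shared. Its term for replicate 3 held tumor replicate 3 alone, so that tumor did not enter the comparison in this fit. The tests of the difference in tumor effect from WT week 8, KO week 8 and KO week 12 gave 0 DEGs in edgeR, 12, 7 and 3 in DESeq2, and 15, 11 and 5 without the filter on low counts.

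Of 148 named genes, 61 stayed on the same side of the threshold under every alternative, and in none did the direction of a called gene turn. The replicate block ended 47 calls, and leaving out gland replicate 2 ended 66. Pthlh passed only with the KO glands of all 3 weeks (log2 fold change -1.14, adjusted p = 0.0355). With 2 glands, the spread within the gland group rests on 1 difference, and genes with few reads have wide counting intervals.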
